A study of Mus with 6 samples.

Results

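The genes described here are the nuclear genes named as subunits of respiratory complexes II, III and IV, of ATP synthase (complex V) and of cytochrome c. They were taken from the deposited gene table by name: protein-coding genes called Sdha to Sdhd, those starting with Uqcr, Cox4 to Cox8 or Atp5, and Cyc1 and Cycs. This gave 50 gene models with 49 symbols out of 54532 genes. Expression was measured by RNA-seq in the basolateral amygdala, a brain region that stores learned fear, of mice labelled female. There were 3 libraries from wild-type mice (WT) and 3 from mice labelled CNTNAP4-KO (KO), a knockout of the gene for a contactin-associated adhesion protein found in interneurons. The labels used here do not describe the allele, the strain, the age or any treatment, and do not say that each library came from 1 animal, so the p-values measure the spread between these libraries.

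Oxidative phosphorylation turns electrons from the citric acid cycle into ATP. Complex II passes electrons from succinate to ubiquinone, complex III passes them to cytochrome c, and complex IV hands them to oxygen. Complexes III and IV pump protons across the inner mitochondrial membrane, and complex V lets the protons back through a rotor that drives ATP synthesis. Complexes III, IV and V mix subunits encoded in mitochondrial DNA, which form much of the catalytic and proton-conducting core, with many nuclear-encoded ones, while complex II is wholly nuclear. Neurons depend heavily on this pathway to restore ion gradients after firing.

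Values are in FPKM (fragments divided by gene length in kilobases and by library size). Levels set side by side between genes thus rest on the length listed for each gene model. Whether that length is the one of the transcripts in this tissue was not tested. Of the 50 gene models, 45 had a mean of at least 1 FPKM over the 6 libraries and were tested. The rest were Cox7a1, Cox7b2, Cox8b, Cox8c and a second model of Atp5o. Changes are KO minus WT on the log2(FPKM + 1) scale, from limma fitted over 13087 genes with Benjamini-Hochberg adjustment over all of them. A gene was called at an adjusted p under 0.05.

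No member was called (0 of 45; smallest limma adjusted p = 0.302). Of all genes tested 0.00764% were called, which is 1 gene, and 0 were called with the replicate block. Most members were nonetheless slightly lower on average in KO: 37 of 45 had a negative log2 fold change (82.2%), against 48.7% of all genes tested. Their median was -0.12, and the median of all genes was 0.01. At an unadjusted p under 0.05, 9 members were lower (20.0%, against 7.25% of all genes) and 0 were higher (7.05% of all genes). All 3 KO values lay below all 3 WT values for 11 members (24.4%, against 10.1% of all genes), and above them for 0 (11.9%). With each library's trend with gene length removed, 22 of 45 were negative, the median was 0.01 and 2 were lower at an unadjusted p under 0.05, as described further on. The 9 became 17 of 45 with sample weights (37.8%, against 11.7% of all genes) and 4 of 44 with values rescaled to 1 common sum (9.09%, against 4.41%). They became 4 of 45 without KO1 (8.89%, against 5.74%), 5 of 44 without WT2 (11.4%, against 6.85%) and 5 of 44 without WT3 (11.4%, against 9.78%). The members with a negative value were 29 of 44 with the common sum and 33 of 44 without WT1. Summed over all members, the level was 3341, 3459 and 3553 FPKM in WT against 3128, 3117 and 3101 in KO, a ratio of 0.903, and 0.940 with values rescaled to 1 common sum. The highest of the 6 libraries was WT1 for 15 members and WT3 for 14, and the lowest was KO1 for 17 and KO3 for 12. The members with non-overlapping groups were spread over complexes III, IV and V, and none was in complex II.

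**Figure D1:**
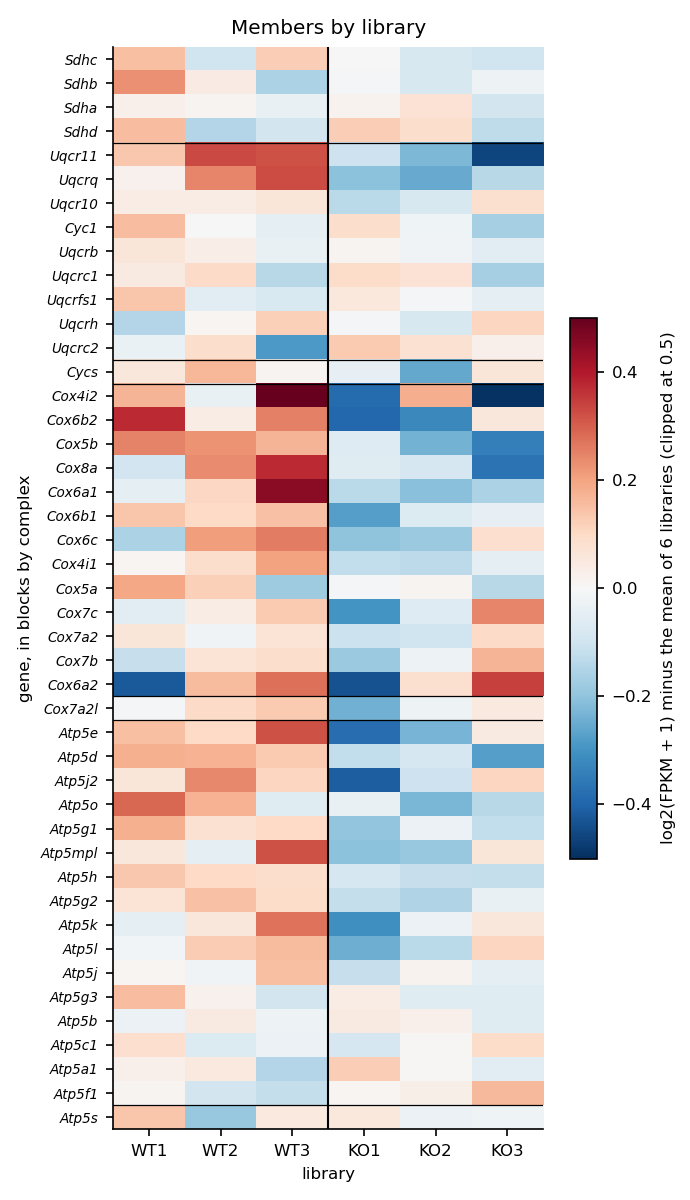
Each row is 1 of the 45 tested members and each column 1 library (WT left of the line, KO right of it). Colour gives log2(FPKM + 1) minus that gene's mean over 6 libraries, and blocks follow the complexes; Uqcr11, Uqcrq and Cox5b are above their mean in all 3 WT libraries and below it in all 3 KO libraries.

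The libraries held 15933029 to 17789798 reads recovered from the FPKM values, and the members took 0.581% to 0.661% of them. Cntnap4 itself was at 3.53, 3.90 and 2.15 FPKM in WT against 1.08, 1.19 and 1.28 in KO, lower in every KO library but not at 0 (limma adjusted p = 0.302); which part of the gene is deleted is unknown here. WT3 and KO3 stood apart by high striatal markers, which summed to 622 and 268 FPKM against 48.1 to 71.3 in the other libraries. WT1 stood apart by low parvalbumin interneuron markers, 53.5 FPKM against 108 to 149, and low oligodendrocyte markers, 252 FPKM against 491 to 731. Neuron markers, 5 of 8 of them higher on average in KO, summed to 980 to 1102 FPKM in WT against 1161 to 1261 in KO. The largest differences in this sum were those of Snap25, at 293 ± 39.5 in WT against 411 ± 9.57 in KO, and Syt1, at 169 ± 40.5 and 240 ± 26.4 (SD, n = 3 each). The other 3 of 8 were lower on average in KO. One of these, Map2, was at 77.5, 75.4 and 78.6 in WT against 69.0, 69.7 and 74.6 in KO, with no overlap. Lower on average in KO were 9 of 9 microglial markers (131 to 165 FPKM summed, against 185 to 249) and 6 of 6 oligodendrocyte precursor markers (79.3 to 80.8 against 93.1 to 123), and none of these markers was at 0 in any library. So were 7 of 8 astrocyte markers (405 to 473 against 434 to 581) and 5 of 5 meningeal fibroblast markers (5.19 to 11.0 against 8.07 to 25.0), while 8 of 8 oligodendrocyte markers were higher on average in KO. WT3 also stood apart by erythroid markers, 431 FPKM against 133 to 185, and WT1 by choroid plexus and ependyma markers, 52.4 FPKM against 5.66 to 25.7. The part of these differences in the members' values was not tested, and in bulk tissue fewer cells of a type and less RNA per cell cannot be told apart.

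Complex II, succinate dehydrogenase, showed no separation between the groups. Its flavoprotein Sdha, which oxidises succinate, was at 86.4, 85.7 and 82.8 FPKM in WT against 85.9, 89.2 and 79.7 in KO, a ratio of 1.00 (log2 fold change 0.00, SE 0.09). Sdhb, the iron-sulfur subunit, was at 62.6, 54.8 and 47.6 in WT against 53.0, 50.3 and 52.3 in KO. The groups overlapped for both genes. The membrane anchor Sdhc was at 25.2, 21.0 and 24.7 in WT against 22.6, 21.3 and 21.0 in KO. The other anchor, Sdhd, was at 61.2, 49.5 and 51.4 in WT against 59.9, 58.4 and 50.2 in KO, the only complex II gene with a higher mean in KO. The summed level of the 4 genes was 218 ± 15.5 FPKM in WT against 215 ± 9.92 in KO (SD, n = 3 each), and the median log2 fold change of -0.04 turned to 0.012 with quantile normalization, 0.019 with values rescaled to 1 common sum, 0.025 with the length trend removed and 0.015 without WT1.

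In complex III, the cytochrome bc1 complex, 2 of 9 members did not overlap between groups, both of them small subunits. Of all genes tested 10.1% were lower without overlap. The electron carriers and core proteins of complex III overlapped between groups, with ratios from 0.956 to 1.11. Uqcrfs1, the Rieske iron-sulfur protein, was at 89.1 ± 7.56 FPKM in WT against 88.8 ± 3.09 in KO (SD, n = 3 each). Cyc1, the haem-bearing cytochrome c1, was at 77.4, 69.4 and 67.1 in WT against 74.1, 68.5 and 61.9 in KO. Uqcrc1 and Uqcrc2, the large proteins of the matrix side, were at 58.9 ± 5.004 and 54.2 ± 7.17 in WT against 58.8 ± 5.79 and 60.2 ± 2.25 in KO. Uqcrc2 had the most positive log2 fold change of any member, 0.16 (SE 0.12), with overlapping groups.

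Among the small subunits of complex III, Uqcr11 and Uqcrq stood lower in every KO library, while Uqcrb, Uqcrh and Uqcr10 overlapped. Uqcr11, a very small membrane subunit, was at 44.0, 50.4 and 50.1 FPKM in WT against 37.1, 34.0 and 28.8 in KO. On the log2(FPKM + 1) scale this was the largest difference of the 45 members, while the low isoforms Cox6b2 and Cox4i2 had lower ratios (0.541 and 0.616). Uqcr11 had a ratio of 0.692 and a log2 fold change of -0.52 (SE 0.12, limma adjusted p = 0.302), from 304 to 542 reads per library. In build GRCm38, named in the submitters' processing notes, the gene (ENSMUSG00000020163) lies on chromosome 10 from 80402997 to 80406830. Uqcrq, also called ubiquinone-binding protein QP-C, was at 38.7, 45.3 and 48.0 in WT against 33.0, 31.9 and 34.5 in KO. It had a log2 fold change of -0.40 with an SE of 0.11 (limma adjusted p = 0.302); the gene (ENSMUSG00000044894) lies on chromosome 11 from 53427922 to 53430831. Uqcrh, the acidic hinge protein that helps dock cytochrome c, was at 72.2 ± 6.72 in WT against 72.8 ± 4.92 in KO (SD, n = 3 each). Uqcrb was at 30.5 ± 1.11 and 29.7 ± 0.67 (WT first, then KO, as in all such pairs), and Uqcr10 at 90.9 ± 0.85 and 85.4 ± 6.72. The small subunits of complex III thus ranged in ratio from 0.692 for Uqcr11 to 1.01 for Uqcrh.

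Cytochrome c, the mobile carrier between complexes III and IV, is encoded by Cycs in somatic cells. It was at 21.4, 23.2 and 20.7 FPKM in WT against 19.9, 17.0 and 21.4 in KO. The groups overlapped through KO3, and the log2 fold change was -0.16 (SE 0.11).

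Complex IV, cytochrome c oxidase, was the complex in which all tested members were lower on average in KO (13 of 13, median -0.20). For 4 of them the groups did not overlap, and 10.1% of all genes tested were lower in this way. The tested members of complex IV had a median length of 1108 bases. Other protein-coding genes of 1000 to 1500 bases were 76.2% negative with a median of -0.20, and 27.9% were lower without overlap. The summed level of complex IV was 1309, 1445 and 1604 FPKM in WT against 1204, 1216 and 1219 in KO, a ratio of 0.835. The largest differences in this sum were those of Cox8a (mean 371 in WT against 291 in KO), Cox6a1 (347 against 272) and Cox4i1 (255 against 222). Of these Cox8a overlapped between groups. The WT libraries were spread far wider than the KO libraries, with WT3 highest. Over the 18 alternatives the median of complex IV stayed between -0.25 and -0.03, the latter with the length trend removed, where 8 of 13 were negative.

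**Figure D2:**
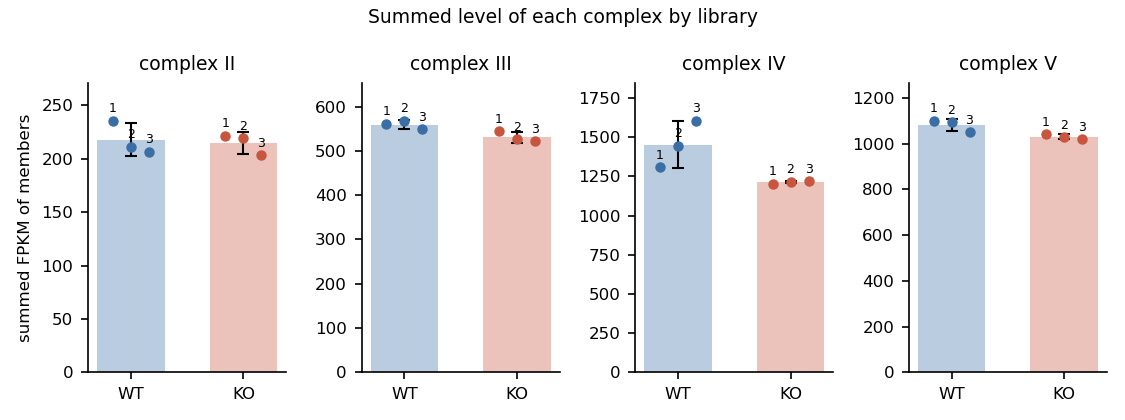
Bars give the mean summed FPKM of the members of complexes II, III, IV and V in WT and KO, error bars the SD over 3 libraries, and points the libraries, marked with their replicate number. Complex IV ranges from 1309 to 1604 FPKM in WT and from 1204 to 1219 in KO.

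Cox5b, a zinc-binding subunit of the matrix side, had the smallest p of complex IV. It was at 49.4, 48.6 and 46.8 FPKM in WT against 39.6, 35.03 and 32.5 in KO, with all 3 WT values within a narrow range. The ratio was 0.740 and the log2 fold change -0.43 (SE 0.10, limma adjusted p = 0.302), from 849 to 1467 reads per library; the gene (ENSMUSG00000061518) lies on chromosome 1 from 36691449 to 36693681. Its partner in the same layer, Cox5a, was at 35.03 ± 4.74 in WT against 32.7 ± 1.91 in KO (SD, n = 3 each) with overlapping groups. Cox6b1, which faces the intermembrane space, was at 136, 132 and 137 in WT against 102, 117 and 119.8 in KO, with no overlap.

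Of the 5 members with the highest mean FPKM, Cox8a, Cox6a1 and Cox4i1 belong to complex IV and Atp5a1 and Atp5b to complex V. Cox8a, a single-helix membrane subunit, was the highest of all members at 305, 384 and 423 FPKM in WT against 313, 308 and 252 in KO. Its groups overlapped at WT1, and the log2 fold change was -0.34 (SE 0.16). Cox6a1, which contributes to dimer formation, was at 295, 328 and 418 in WT against 278, 264 and 273 in KO. Cox4i1, a regulatory subunit that binds ATP, was at 239, 253 and 274 in WT against 219, 217 and 229.8 in KO. Cox6a1 and Cox4i1 did not overlap, and WT3 was the highest library for all 3 genes. In WT3 the genes of mitochondrial DNA also took the most reads, 8.34% against 4.10% to 6.31% elsewhere. Without WT3 the summed ratio of complex IV went from 0.835 to 0.881, and without WT1 to 0.796. Cox4i1 lies on the chromosome of the knocked-out gene, chromosome 8, 7.79 Mb beyond Cntnap4, and a part of flanking sequence in its values was not tested.

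The other common subunits of complex IV overlapped between groups. Cox6c was at 33.6 ± 5.17 FPKM in WT against 28.9 ± 3.43 in KO, Cox7a2 at 96.0 ± 3.17 and 91.3 ± 7.498, Cox7b at 58.5 ± 4.53 and 57.5 ± 7.30, and Cox7c at 63.3 ± 4.07 and 60.6 ± 11.7 (SD, n = 3 each). For Cox7a2, Cox7b and Cox7c the highest of the 6 libraries was KO3. Cox7a2l, a relative of Cox7a2 that links complexes III and IV into supercomplexes, was at 111 ± 5.36 in WT against 100.2 ± 10.3 in KO.

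Several complex IV subunits, and the c subunit of complex V, are encoded by more than 1 gene, and those of complex IV are used in different tissues. The common isoform made up nearly all of each complex IV pair in the amygdala. Cox4i2, the isoform of lung and of pericytes in brain, was at 2.17, 1.74 and 3.16 FPKM in WT against 1.16, 2.20 and 1.00 in KO, and took 0.434% to 1.14% of the Cox4i pair. Of the markers of pericytes and smooth muscle, 9 of 9 had lower means in KO, and their sums were 78.7 to 146 FPKM in WT against 70.4 to 94.6 in KO. WT3 was highest for both Cox4i2 and that marker sum, but Cox4i2 was lowest in KO3, where the markers were the highest of the KO libraries; the part of those cells was not tested. Cox4i2 rested on 13 to 42 reads per library, and its log2 fold change of -0.46 was -0.70 with a pseudocount of 0.1.

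Cox6a2, the heart and muscle isoform that is also found in parvalbumin interneurons of the brain, was at 3.54, 5.78 and 6.36 FPKM in WT against 3.49, 5.43 and 6.69 in KO. Its log2 fold change was -0.01 (SE 0.25), and the libraries of each group spanned nearly the same range. It was low in WT1 and KO1. Pvalb itself was at 5.19, 32.6 and 44.3 in WT against 32.5, 57.5 and 46.8 in KO. WT1 was low in both genes and KO1 was the lowest KO library in both. The highest KO library was KO3 for Cox6a2 but KO2 for Pvalb. All 7 parvalbumin interneuron markers summed to 53.5, 108 and 141 FPKM in WT against 112, 149 and 142 in KO. Among them Kcnc1 and Kcnc2 were lowest of the KO libraries in KO3. The part of these cells in the Cox6a2 values was not tested. Cox6a2 took 1.18% to 2.39% of the Cox6a pair.

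Cox6b2, the testis isoform of Cox6b1, was at 1.54, 1.01 and 1.34 FPKM in WT against 0.49, 0.57 and 1.04 in KO, with 9 to 32 reads per library. It had the lowest mean of the tested members, its groups overlapped by KO3 alone, and its log2 fold change was -0.44 with an SE of 0.18 (limma adjusted p = 0.342). At such a low level the pseudocount matters: with a pseudocount of 0.1 the log2 fold change of Cox6b2 was -0.84. Cox7a1, of heart and muscle, was at 0.60, 1.0496 and 0.66 in WT against 0.11, 0.65 and 0.68 in KO, from 1 to 9 reads. Cox7b2 was at 0.10, 0 and 0.76 in WT against 0, 1.17 and 0.11 in KO, and Cox8b at 0, 0.17 and 0.33 and at 0, 0.48 and 0, from at most 11 and 3 reads. Cox8c was at 0 in all 6 libraries. The last 4 isoforms were too low to be tested.

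**Figure D3:**
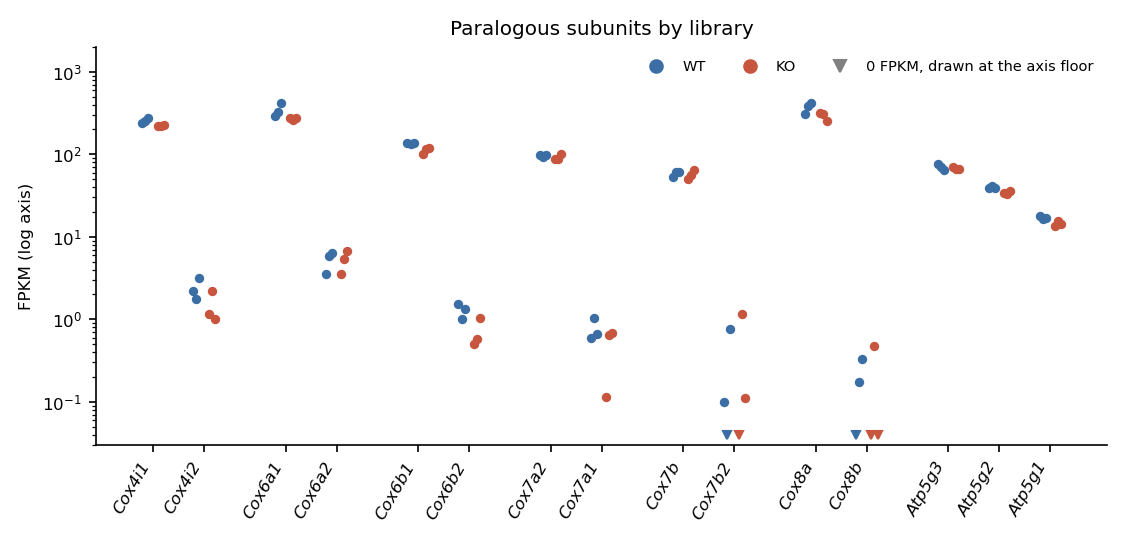
FPKM (log axis) of paralogous subunits in each library, WT in blue and KO in red, with values of 0 drawn as triangles at the axis floor. The common complex IV isoforms lie between 50.6 and 423 FPKM and the restricted ones at 6.69 or less, while the 3 c subunit genes lie within 13.6 to 77.3.

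In the F1 head of complex V, where ATP is made, 3 of 5 members overlapped between groups and 2 did not (10.1% of all genes tested were lower without overlap). Atp5a1 and Atp5b, the alpha subunit and the catalytic beta subunit, were at 254 ± 18.4 and 224 ± 6.79 FPKM in WT against 262 ± 16.6 and 226 ± 8.82 in KO (SD, n = 3 each). Atp5c1, the gamma subunit that turns inside the head, was at 87.1 ± 4.80 and 87.7 ± 5.47. These genes had ratios between 1.01 and 1.03. The small subunits of the central stalk were lower in each KO library. Atp5d, the delta subunit, was at 102, 101.8 and 98.8 in WT against 82.6, 85.0 and 74.2 in KO. Its ratio was 0.799 and its log2 fold change -0.32 (SE 0.10, limma adjusted p = 0.303); the gene (ENSMUSG00000003072) lies on chromosome 10 from 80138632 to 80145818. Atp5e, the epsilon subunit, was at 25.7, 24.8 and 29.0 in WT against 17.5, 19.5 and 23.8 in KO. It had a log2 fold change of -0.38 with an SE of 0.13 (limma adjusted p = 0.318), and the groups were separated by WT2 and KO3 only narrowly.

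The model of Atp5d overlaps Cbarp on the opposite strand, a gene with 2.81 times as many reads. The sources used here do not give the use of strand in counting, so reads of the pair cannot be told apart. Cbarp was at 108 ± 22.8 FPKM in WT against 88.2 ± 13.6 in KO (SD, n = 3 each). Smaller overlaps of the same kind touched Cox4i1 (with Emc8), Cox6c (with Vps13b), Atp5f1 (with Wdr77) and Atp5j (with Gabpa). Gabpa encodes a subunit of a transcription factor of respiratory genes.

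The c ring is the rotor of complex V, and Atp5g1, Atp5g2 and Atp5g3 encode the same mature c protein behind different import sequences. Atp5g3 had the highest FPKM of the 3, at 77.3, 70.4 and 64.9 FPKM in WT against 71.1, 66.4 and 66.3 in KO, with overlapping groups. Atp5g2 was at 38.9, 41.1 and 39.5 in WT against 34.0, 33.2 and 36.0 in KO. Atp5g1 was at 17.9, 16.6 and 16.9 in WT against 13.6, 15.4 and 14.4 in KO. The KO libraries were thus below the WT libraries for Atp5g2 and Atp5g1, as for 10.1% of all genes tested. Among other protein-coding genes this share was 24.1% at 1500 to 2000 bases, the band of Atp5g2, and 10.2% at 3000 to 5000, that of Atp5g1. The log2 fold changes were -0.21 for Atp5g2 (SE 0.09, limma adjusted p = 0.353) and -0.23 for Atp5g1 (SE 0.09, limma adjusted p = 0.331). With the trend with listed length removed these fold changes became -0.05 for Atp5g2 and -0.24 for Atp5g1. Atp5g3 gave 55.4% ± 2.09 of the summed c subunit FPKM in WT against 58.2% ± 1.56 in KO (SD, n = 3 each), and the shares of all 3 genes overlapped between the groups. The summed level was 128 ± 6.39 FPKM in WT against 117 ± 1.84 in KO. By mean recovered reads Atp5g1 (1455 in WT and 1191 in KO) stood above Atp5g2 (1146 and 964), the reverse of their order in FPKM. The shares thus depend on the listed lengths of 2181 (Atp5g3), 1675 (Atp5g2) and 4912 bases (Atp5g1).

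The peripheral stalk, which holds the F1 head still, was uneven. Atp5h, its subunit d, was at 73.3, 71.6 and 71.1 FPKM in WT against 62.9, 61.5 and 61.4 in KO, with small spread inside each group. This gave a log2 fold change of -0.21 (SE 0.09, limma adjusted p = 0.342), and of -0.03 with the length trend removed. Atp5o, the oligomycin sensitivity protein at the top of the stalk, was at 40.7, 37.5 and 31.7 in WT against 32.3, 28.2 and 30.0 in KO, overlapping at WT3. Atp5f1, subunit b, had the opposite sign, at 50.6 ± 2.52 in WT against 55.6 ± 3.30 in KO (SD, n = 3 each; log2 fold change 0.13, SE 0.10). Atp5j, coupling factor 6, was at 29.1 ± 1.92 and 27.2 ± 1.30. The stalk thus held members on both sides of 0.

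The small membrane subunits of complex V, which help ATP synthase dimers bend the cristae, were lower on average for 4 of 4 (3 of 4 with the length trend removed), and all overlapped. Atp5j2 was at 19.5 ± 1.34 FPKM in WT against 16.1 ± 3.03 in KO, Atp5k at 18.9 ± 2.27 and 16.5 ± 2.23, Atp5l at 7.36 ± 0.52 and 6.39 ± 0.93, and Atp5mpl at 26.3 ± 3.61 and 22.3 ± 2.46 (SD, n = 3 each). KO1 was the lowest library for all 4 genes. Atp5s, which carries the family name but was not counted as a subunit here, was at 8.26 ± 1.053 and 8.23 ± 0.29. Complex V as a whole had 12 of 16 tested members negative, a median of -0.20 (10 of 16 and -0.04 with the length trend removed), and summed levels of 1099.8, 1093 and 1049 FPKM in WT against 1042, 1027 and 1019 in KO.

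**Figure D4:**
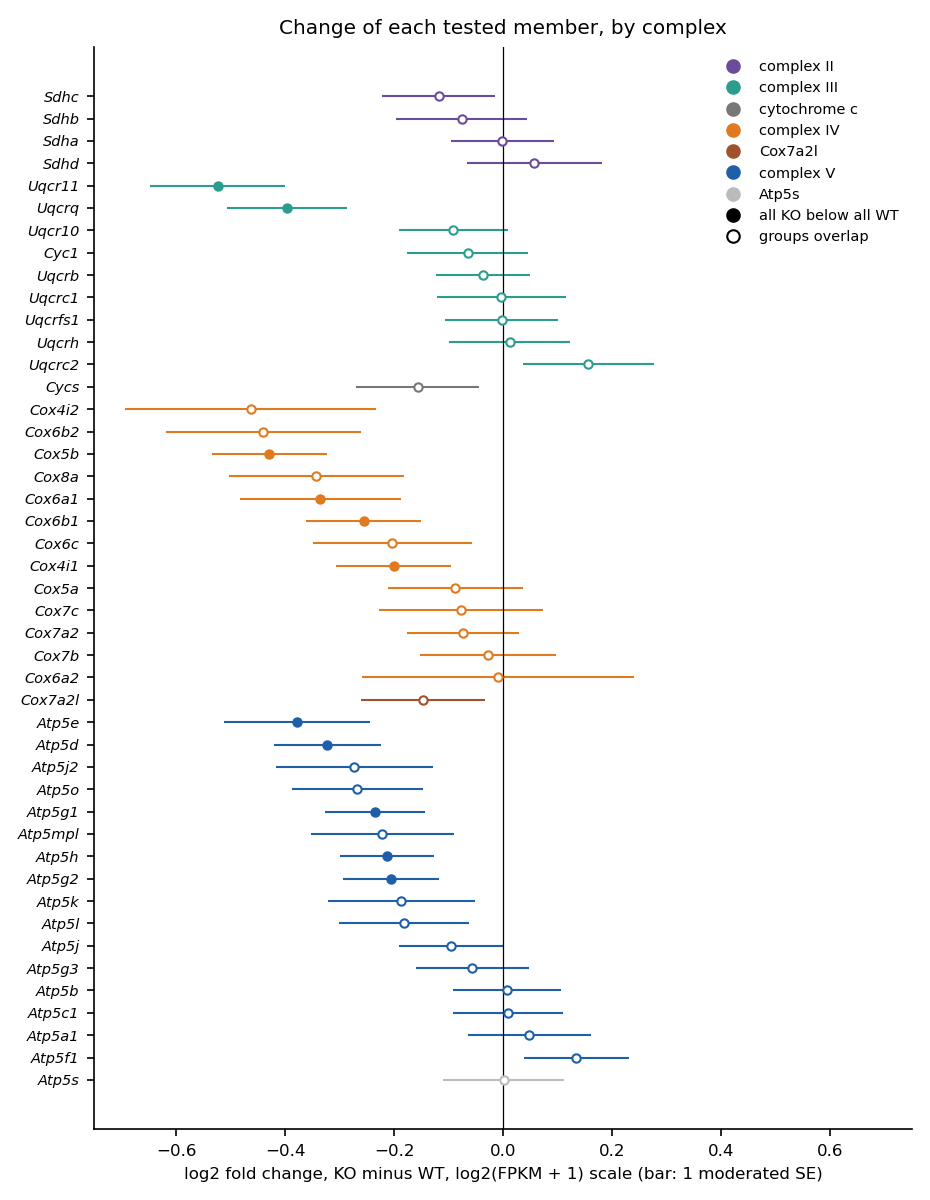
Points give the log2 fold change (KO minus WT) of each tested member and bars 1 moderated standard error, grouped by complex; filled points are genes whose KO values all lie below their WT values. The filled points run from -0.52 for Uqcr11 to -0.20 for Cox4i1, and no complex II gene is filled.

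The members have in common that most are short, and short genes were lower on average in KO across the table. The median length of the tested members was 1756 bases, against 4171 for all genes tested. Of the other protein-coding genes of up to 2000 bases, 76.0% of 1480 were negative, and their median was -0.18. The 27 members of that length had 24 negative and a median of -0.21. Their groups did not overlap for 10 of 27, while the share among the others was 26.1%, and 33.6% among those with at least 10 FPKM. Over 2000 bases, 13 of 18 members were negative with a median of -0.07, and the other protein-coding genes had 44.9% negative with a median of 0.03. The most negative members of this class were Atp5j2, Atp5g1, Cox6c and Atp5l, listed at 3306, 4912, 3567 and 6443 bases. They fall in it by the length of the gene model, and whether their transcripts are that long was not tested.

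The relation to length did not run evenly through the members. In the band from 1000 to 1500 bases the members' median of -0.08 lay above the -0.20 of the other genes. In the band from 1500 to 2000 bases it was -0.30 against -0.15, and this band held Cox5b, Uqcrq, Atp5d, Atp5e, Atp5g2 and Cox4i1. These were 6 of the 11 members with no overlap, and 6 of the 8 members in the band. Among the other genes of the band 24.1% were lower without overlap, and 30.0% of those with at least 10 FPKM, against 10.1% of all genes tested. With the trend removed from each library, the lowest values were those of Uqcr11 (-0.27), Cox5b (-0.26), Uqcrq (-0.25), Atp5g1 (-0.24), Atp5l (-0.24), Atp5j2 (-0.23) and Atp5e (-0.23), with a smallest adjusted p of 0.395 (limma). Of these Cox5b and Atp5g1 were lower at an unadjusted p under 0.05, and Uqcrb was higher (0.20). The other members with no overlap were then at -0.19 (Atp5d), -0.09 (Cox6a1), -0.05 (Atp5g2), -0.03 (Atp5h), -0.03 (Cox4i1) and -0.01 (Cox6b1), and Cox8a at -0.09. The most positive were Sdhd (0.26), Uqcrc2 (0.24) and Cox6a2 (0.24). The medians were then 0.03 for complex II, 0.16 for complex III, -0.03 for complex IV and -0.04 for complex V. All these values rest on the listed gene lengths. Atp5g1, Atp5l and Atp5j2 are listed at 4912, 6443 and 3306 bases, so they were treated as longer genes. Whether their transcripts are that long was not tested.

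**Figure D5:**
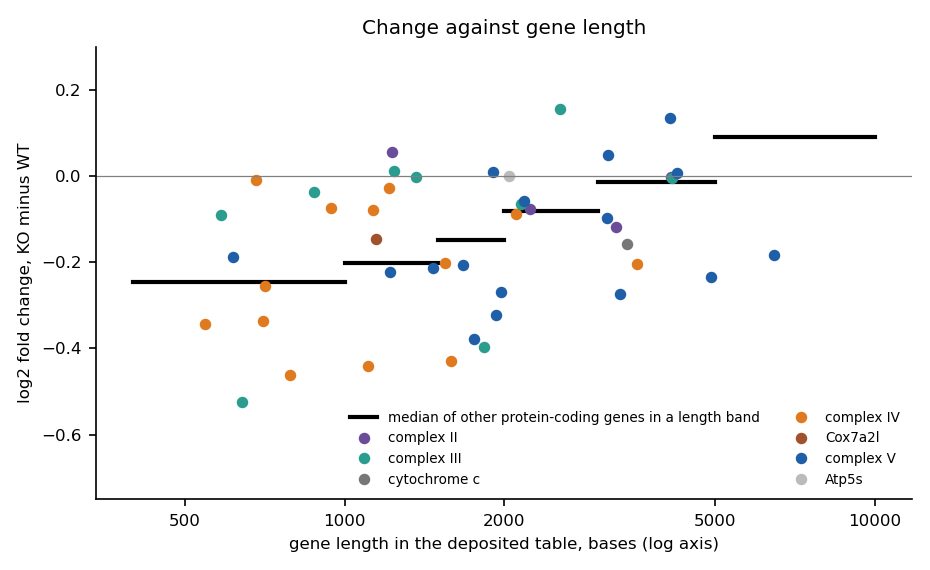
Log2 fold change (KO minus WT) of each tested member against its gene length in bases (log axis), coloured by complex; black lines give the median of the other protein-coding genes in 6 length bands, of which the first and the last have open ends and are drawn only in part. The line climbs from -0.25 for genes of up to 1000 bases to 0.09 above 5000, and members lie on both sides of it.

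The genes of the same pathway outside the name rule were read from lists. Nuclear complex I subunits had 32 of 36 negative (88.9%, against 48.7% of all genes) with a median of -0.19. Of the 36, 10 were lower at an unadjusted p under 0.05 (against 7.25% of all genes) and 0 were called. All 3 KO values lay below all 3 WT values for 17 of 36 and above them for 1 (against 10.1% and 11.9% of all genes). Their median length was 1635 bases. Protein-coding genes of up to 2000 bases, members left out, were 76.0% negative with a median of -0.18. Of them 21.7% were lower at an unadjusted p under 0.05 and 26.1% were lower without overlap. The 6 subunits of complexes III to V encoded in mitochondrial DNA were lower on average for 6 of 6 but all overlapped, with WT3 far above the other libraries in their sum (31132 FPKM against 15249 to 22289). Atpif1, the inhibitor that stops complex V from running backwards, was at 48.0, 41.8 and 39.4 FPKM in WT against 38.9, 36.1 and 33.1 in KO, with no overlap and a log2 fold change of -0.25 (SE 0.11, limma adjusted p = 0.370). Ndufa4, a complex IV subunit named for complex I, was at 90.5 ± 3.64 and 89.6 ± 9.51 (SD, n = 3 each). Usmg5, a membrane subunit of complex V, was at 204 ± 3.89 and 181 ± 33.4.

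Of the assembly factors of complexes II to V, 18 of 32 were negative (56.2%, against 48.7% of all genes) with a median of -0.04. At an unadjusted p under 0.05, 2 were lower and 2 higher (against 7.25% and 7.05% of all genes), and 0 were called. Their median length was 2341 bases and their median level 8.28 FPKM, against 1756 bases and 53.5 FPKM for the tested members. The difference from the subunits was not tested. Cox14, which acts early in complex IV assembly, was at 58.5 ± 4.14 FPKM in WT against 46.2 ± 4.003 in KO. Fmc1, an assembly factor of complex V, was at 18.5 ± 2.75 and 13.9 ± 0.53, and Cmc2 at 3.98 ± 0.61 and 5.26 ± 0.45 (SD, n = 3 each). Cox14 and Fmc1 were lower in every KO library, and Cmc2 was higher in every KO library. Groups did not overlap for 4 of the 32 lower in KO and 6 higher (against 10.1% and 11.9% of all genes).

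Of 14 regulators of mitochondrial gene expression tested, 6 were negative and the median was 0.03. At an unadjusted p under 0.05, 1 was higher (against 7.05% of all genes), and 0 were called. The gene of smallest p was Ppargc1a, a coactivator that drives respiratory gene transcription, which was at 5.10, 8.11 and 6.59 FPKM in WT against 10.4, 9.94 and 9.22 in KO. All KO values lay above all WT values (log2 fold change 0.53, SE 0.15, limma adjusted p = 0.302), as for 11.9% of all genes tested, with the opposite sign to most members. Ppargc1a is 6592 bases long, and other protein-coding genes over 5000 bases were 31.9% negative with a median of 0.09. Tfb2m was at 5.82 ± 0.435 and 6.62 ± 1.03 and Ppargc1b at 1.81 ± 1.06 and 2.71 ± 0.745 (SD, n = 3 each). The citric acid cycle, which feeds complexes I and II, had 9 of 17 negative with a median of -0.02; Idh3a, a subunit of the NAD-linked isocitrate dehydrogenase, was at 43.7 ± 3.68 FPKM in WT against 49.4 ± 1.74 in KO, with no overlap. In glycolysis 11 of 17 gene models were negative with a median of -0.08, and in either list 0 were called and 0 passed an unadjusted p of 0.05.

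Levels of single members carry a limit of counting. Many of these genes have near-identical processed copies in the genome, and the sources used here do not say how reads matching several places were handled. Gapdh, a glycolytic gene with many such copies, was listed at only 1.16 to 12.03 FPKM. Among pseudogenes named after members, Cox6c2 was at 2.36 to 7.38 FPKM from at most 28 reads, and the others had at most 9 reads.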

How the data were processed

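The authors deposited 1 table of FPKM per gene, with names, positions, gene lengths and biotypes per the file headers. The submitters' processing notes name the builds GRCm38 and mm10; aligner, counter, annotation version and strand setting: not given in the sources used here. Whole reads were recovered from FPKM times gene length divided by the value of 1 read in that library, and 100% of values came out whole (tolerance 0.01 reads). All 50 members matched a RefSeq gene (GRCm38.p6) at an overlapping position, 48 by symbol and 2 by synonym.

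KO was compared with WT by limma 3.58.1 in R 4.3.3 on log2(FPKM + 1), with a variance trend, for genes with a mean of at least 1 FPKM (two-sided, Benjamini-Hochberg over 13087 genes); fits were tested on simulated data. Exact permutation of 3 against 3 cannot go below p = 0.1. Libraries with the same replicate number deviated together (correlations of 0.17, 0.15 and 0.33 over genes, though WT2 correlated more with KO1, at 0.28), so a fit with the replicate block was also made. The members and lists were chosen with earlier results of these data known. Values in every library are given for the 12 members of smallest p, isoform sets, complex II, Cyc1, Cycs and the extremes, and up to 3 genes are named from other lists; genes of overlapping models, the Cox6c2 copy and Gapdh were named after their values were seen. The planned count test was replaced by voom on the recovered reads, chosen after seeing the data, as was leaving out both libraries numbered 3.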

Additional observations from a re-analysis of the deposited data

How the results depend on the processing

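No member was called under any of the 18 alternatives (0 in each; smallest adjusted p of a member 0.0904, with sample weights). The number of genes called over the whole table was 1, and it was 0 with no filter, quantile normalization, no variance trend, the length trend removed, the replicate block, and the replicate block with the length trend removed; leaving out 1 library gave 0 to 9, the 9 without WT3. The members' median log2 fold change of -0.12 was -0.087 with quantile normalization, -0.051 with values rescaled to 1 common sum and -0.16 with both libraries numbered 3 left out. Leaving out 1 library gave -0.19 (without KO3) to -0.11. It turned to 0.013 with the length trend removed, with or without the replicate block. The summed FPKM ratio over all members was 0.903 and became 0.940 with the common sum, that of complex III went from 0.948 to 0.985 and that of complex V from 0.952 to 0.9899. The 9 members lower at an unadjusted p under 0.05 became 17 with sample weights, 4 with the common sum and without KO1, 5 without WT2 or without WT3, 2 with the length trend removed and 1 with the block as well. Genes at that level split 949 lower to 923 higher, and 578 to 1223 with the common sum, which moves the median of all genes to 0.056, and 636 to 950 with the length trend removed. The planned quasi-likelihood count test was not run, since the deposited unit is FPKM; voom on the recovered reads, added after seeing the data, called 1 gene and gave 9 members lower at an unadjusted p under 0.05. Apart from the 1 gene, the replicate block changed no call. The cause of these changes was not tested. Of 802 pairs of a member and an alternative, 84 changed sign, and 24 of 45 members kept theirs throughout. Cox6b2, whose mean lies at the minimum of 1 FPKM, was tested in 11 of 18 alternatives.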
